A study of Mus musculus with 4 samples.

Results

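The genes described here are a named set of 47 genes of DNA replication and S phase, chosen by their known roles in origin licensing, helicase activation, DNA synthesis, nucleotide supply, chromatin copying and S-phase control. The choice was made with earlier results of these data known. Each gene was represented by 1 array probe, the one with the highest mean level over the 4 arrays. Of the 47, 46 were measured among the 18952 genes that could be named on the array, 45 passed the filter on dim probes, and Rrm2, for which no probe was matched, was not analysed here. All 4 arrays held RNA from the mammary glands of female mice aged 13 weeks that carry the Δ16HER2 transgene, a form of the receptor HER2 that lacks an exon, at a stage labelled pre-neoplastic. The groups compared were 2 arrays labelled WT (WT 1 and WT 2) and 2 labelled STM KO, the knockout of stathmin (knockout 1 and knockout 2), and the transgene was common to both groups. The labels do not state the promoter that drives the transgene, and separate animals are not stated for the arrays, so p-values here reflect the spread among the 4 samples, which may be technical. One label field names EOC cells, which disagrees with the other fields and was not used. The question of the design is how the transgenic gland differs when stathmin, a protein that binds tubulin and destabilises microtubules, is missing.

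Before a cell copies its DNA, the origin recognition complex, Cdc6 and Cdt1 load the ring-shaped MCM2-7 helicase onto replication origins. Entry into S phase then activates the helicase through Cdc7-Dbf4 kinase, Cdc45 and the GINS complex, and polymerases, primase, the PCNA clamp and the chromatin assembly factors follow the fork. Most of these genes are transcribed in late G1 and S phase under E2F transcription factors, so their RNA is widely read as a mark of the proliferating fraction of a tissue. In the mammary gland, cell division varies with age and with the stage of the oestrous cycle.

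No replication gene differed between knockout and wild type beyond the spread between arrays. The same genes differed widely between the 2 arrays of one genotype. WT 1 lay above WT 2 for 46 of 46 genes, by a median of 1.22 on the log2 scale (2.32-fold), and knockout 1 lay above knockout 2 for 43 of 46, by a median of 0.75 (1.68-fold). With another background correction (normexp) these counts were 42 and 35 of 46, with medians of 0.62 and 0.46. The numbers 1 and 2 are names from the labels, and nothing in the labels ties WT 1 to knockout 1. All 4 arrays lay on 1 slide and were read in 1 scan, with the wild-type arrays in the first positions, so genotype and position on the slide cannot be told apart.

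The array-level facts were as follows. The 75th percentile of the processed signal, by which each array was scaled, was lowest on WT 2 (144) and highest on knockout 1 (291), with WT 1 at 191 and knockout 2 at 160. The share of spots well above background was 54.7% on WT 2 and between 60.4% and 66.2% on the other arrays, the highest being knockout 2. Saturated spots were absent, and Pearson correlations between arrays across probes ran from 0.967 to 0.979. Keratins and junction genes of the labelled tissue were present, with 11 of 11 luminal markers above background on 3 arrays and 10 on WT 2, and 8 of 8 basal and myoepithelial markers on every array. The brighter of the Stmn1 probes read 5.59 (WT 1), 3.59 (WT 2), 4.56 (knockout 1) and 3.34 (knockout 2), with a fold change of -0.64 ± 0.76 with an adjusted p of 0.938 in limma. That probe therefore did not separate the genotypes, and the part of the gene that was removed is not given in the sources used here. The other Stmn1 probe was above background on WT 1 alone, at -1.13 against -3.39, -5.71 and -5.05. The genotypes are named below as the labels give them.

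Because most of these genes moved together between arrays, the sequences in front of a few of them are shown first, taken from the RefSeq promoter table (assembly GRCm38.p6), 5′ to 3′ on the strand of the gene, covering the 250 bases before the start. Capitals mark matches on either strand to an E2F pattern (TTTCCCGC or TTTGGCGC) and to the CCAAT box (CCAAT). Mcm5, Mcm6 and Mcm7 carry E2F letters, Chaf1a has a large difference between arrays and no E2F letters, and Slbp has a small difference between arrays.
Mcm5, chr8:75109259-75109508, plus strand: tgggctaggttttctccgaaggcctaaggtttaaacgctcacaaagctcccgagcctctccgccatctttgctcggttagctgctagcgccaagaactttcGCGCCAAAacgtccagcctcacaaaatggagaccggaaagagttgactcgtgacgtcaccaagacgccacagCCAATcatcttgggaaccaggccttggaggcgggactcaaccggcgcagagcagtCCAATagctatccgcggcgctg
Mcm6, chr1:128359706-128359955, minus strand: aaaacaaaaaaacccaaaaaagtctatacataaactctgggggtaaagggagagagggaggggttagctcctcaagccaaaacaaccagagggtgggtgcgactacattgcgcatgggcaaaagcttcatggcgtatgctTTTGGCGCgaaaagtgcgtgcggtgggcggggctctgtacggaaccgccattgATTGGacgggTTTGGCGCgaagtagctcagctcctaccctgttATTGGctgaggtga
Mcm7, chr5:138171884-138172133, minus strand: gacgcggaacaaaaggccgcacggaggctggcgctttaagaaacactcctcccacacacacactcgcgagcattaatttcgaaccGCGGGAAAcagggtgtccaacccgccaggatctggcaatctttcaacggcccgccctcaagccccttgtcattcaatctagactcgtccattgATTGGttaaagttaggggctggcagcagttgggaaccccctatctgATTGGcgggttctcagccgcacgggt
Chaf1a, chr17:56040166-56040415, plus strand: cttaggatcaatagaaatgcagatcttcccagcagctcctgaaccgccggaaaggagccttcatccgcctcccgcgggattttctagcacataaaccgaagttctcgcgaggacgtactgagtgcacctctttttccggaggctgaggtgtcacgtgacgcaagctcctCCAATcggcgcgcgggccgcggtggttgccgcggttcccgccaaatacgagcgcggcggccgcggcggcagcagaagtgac
Slbp, chr5:33652575-33652824, minus strand: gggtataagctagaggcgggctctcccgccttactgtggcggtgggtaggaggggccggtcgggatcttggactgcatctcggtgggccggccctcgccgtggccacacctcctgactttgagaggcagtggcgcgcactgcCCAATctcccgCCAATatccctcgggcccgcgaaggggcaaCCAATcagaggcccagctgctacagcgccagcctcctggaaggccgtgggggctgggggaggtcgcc

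Promoters were matched for 39 of the 47 genes, with 45 promoters in all, since some genes have several starts. Ccne2, Exo1, Gins1, Gins2, Gmnn, Mcm4, Pole and Prim2 were not matched. The E2F letters stood in 5 of 45 promoters (11.1%), those of Cdc6, Mcm5, Mcm6, Mcm7 and Pola1, against 1.30% of 32851 promoters of the same length in the table. Mcm6 carries them at 2 places, starting 110 and 47 bases before the start, and the 6 matches lay 47 to 165 bases before it and overlapped no other pattern searched. The CCAAT box stood in 48.9% of the members' promoters against 33.8% of all, and the cell cycle homology region (CHR, letters TTTGAA) in 11.1% against 15.99%. These are matches of letters in a window and not measured binding. The 5 genes with E2F letters had a median difference of 1.30 between the wild-type arrays and 1.02 between the knockout arrays. The 33 measured genes whose promoters lacked them had medians of 1.20 and 0.62. The part of E2F sites in the array differences was not tested. Only 2 E2F patterns were searched, so a promoter without the letters is not shown to lack an E2F site.

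The comparison of genotypes was made with limma over all 24182 tested probes, with Benjamini-Hochberg adjustment. Of the 45 tested members 0 passed an adjusted p of 0.05, and 0 of 13204 tested genes (0%) did so. At an unadjusted p under 0.05 the count was 0 of 45 members, against 3.54% of all tested genes. Adjusted p-values of the members ran from 0.935 to 0.999, and standard errors from 0.26 to 1.13 on the log2 scale. Fold changes, as knockout minus wild-type means of log2 levels, ran from -0.89 (Mcm2) to 0.89 (Tk1) with a median of 0.14, where the median of all tested genes was -0.01. The sign was negative in 11 of 46 members (23.9%) and in 50.7% of all tested genes. This balance depended on single arrays, since the median was -0.53 without WT 2, -0.27 without knockout 1, 0.43 without knockout 2 and 0.79 without WT 1. With normexp background correction 21 of 46 were negative.

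The groups overlapped for 44 of 46 genes. Pold1 alone had its knockout readings above both wild-type readings, against 17.8% of all tested genes. Pole2 alone had them below, against 17.7%. Pold1, the catalytic subunit of polymerase delta, read 1.61 (WT 1), 0.63 (WT 2), 1.74 (knockout 1) and 1.65 (knockout 2). WT 2 stood apart and the other arrays lay close together, with a fold change of 0.57 ± 0.39 (SE) and an adjusted p of 0.935 in limma. Pole2, the second subunit of polymerase epsilon, read -2.54 (WT 1), -3.24 (WT 2), -3.26 (knockout 1) and -3.34 (knockout 2). Here WT 1 was the array that stood apart, WT 2 was not well above background, and the fold change was -0.41 ± 0.32 with an adjusted p of 0.935. Leaving out 1 array brought the fold change of Pold1 as low as 0.08 and that of Pole2 as near to 0 as -0.06. In 46 of 46 genes the fold change between genotypes was smaller than the difference between the wild-type arrays, against 54.7% of all tested genes. In 37 it was smaller than the difference within either genotype (80.4%, against 39.2%).

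**Figure D1:**
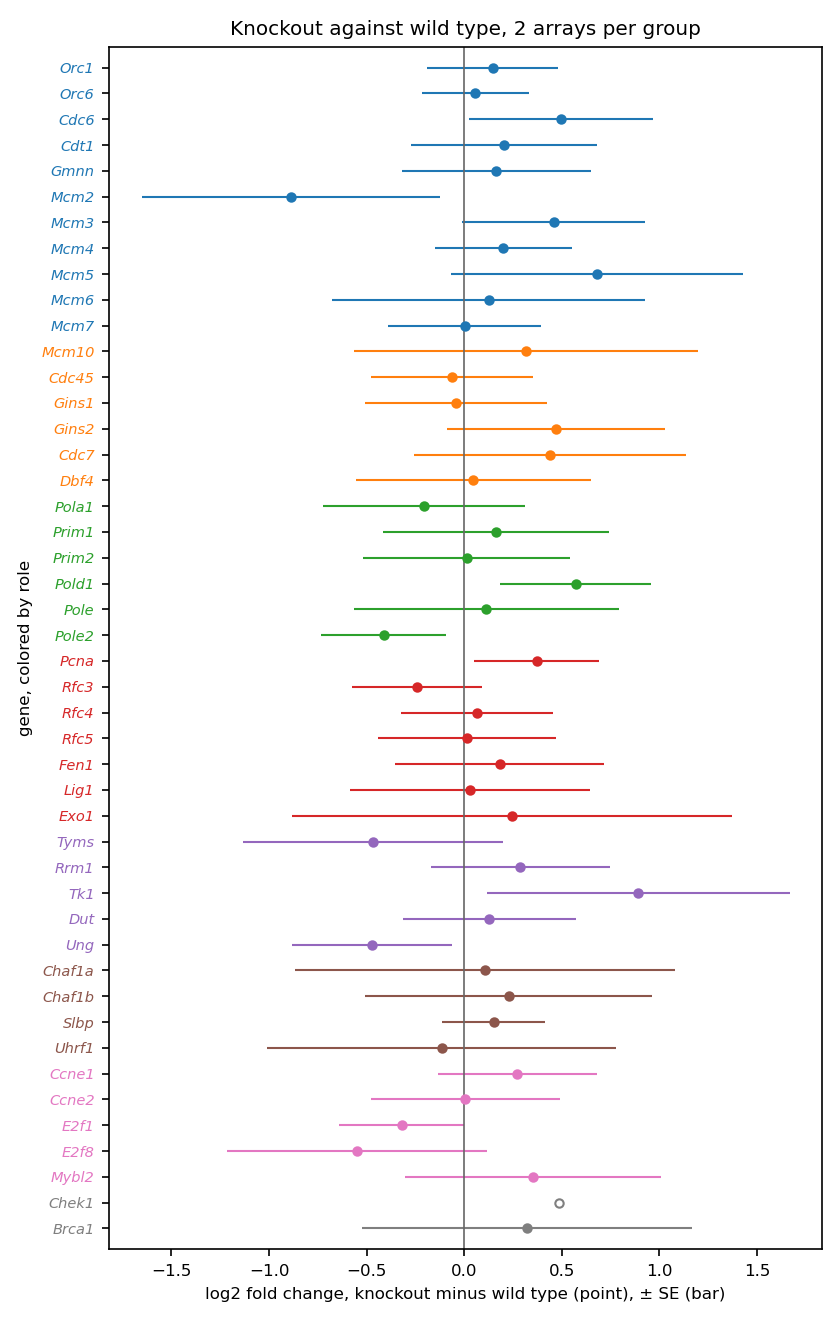
Fold change of each replication gene (x axis, knockout minus WT on the log2 scale, bars are 1 standard error either side from limma) by gene (y axis), colored by role, with an open circle and no bar for Chek1, which was not tested. Values run from -0.89 for Mcm2 to 0.89 for Tk1, and none of the 45 tested genes passed an adjusted p of 0.05.

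The heat map of levels by array shows the pattern gene by gene. On average over the members, levels relative to each gene's own mean were 0.62 (WT 1), -0.73 (WT 2), 0.43 (knockout 1) and -0.32 (knockout 2). The highest reading was on WT 1 for 31 genes, on knockout 1 for 14 and on knockout 2 for 1. The lowest was on WT 2 for 35, on knockout 2 for 10 and on knockout 1 for 1. The order WT 1, knockout 1, knockout 2, WT 2 was found for 21 genes, and the same order with the leading arrays exchanged for 11. In 7 genes the order was WT 1, knockout 1, WT 2, knockout 2, and the other 7 (Orc1, Orc6, Gins1, Cdc7, Pold1, Pole2 and Ccne2) had other orders.

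**Figure D2:**
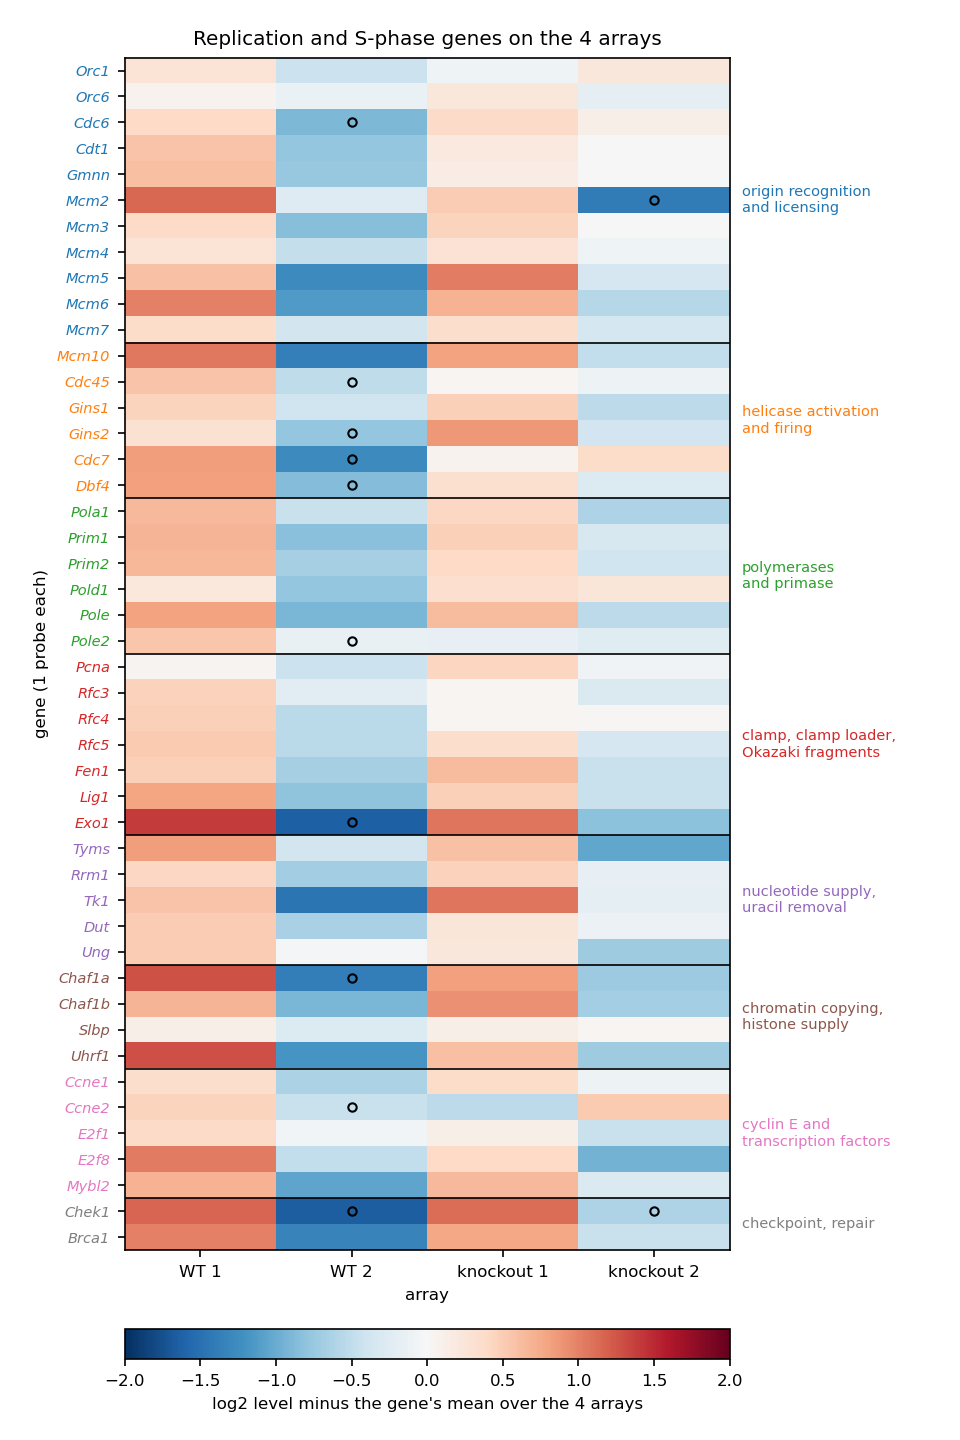
Level of each of 46 genes (rows, grouped by role) on each array (columns), as the log2 level minus the gene's own mean over the 4 arrays, with open circles where the probe was not well above background. WT 1 and knockout 1 are mostly red and WT 2 and knockout 2 mostly blue, with mean values of 0.62, 0.43, -0.73 and -0.32.

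A difference of at least 2-fold separated WT 1 from WT 2 in 32 of 46 members (69.6%), against 3.84% of all tested genes. The corresponding count for knockout 1 over knockout 2 was 17 of 46 (37.0%), against 2.90%. All 17 also passed 2-fold between the wild-type arrays, where 0.894% of all tested genes did so in both groups. Chek1, among the 17, was below background on WT 2 and knockout 2 and was not tested. Array 1 was above array 2 in both groups for 43 members (93.5%), against 23.8% of all tested genes. With 1 array on each side there is no test of these differences. A probe below background gives only an approximate bound, which concerned 10 members on WT 2 and 2 on knockout 2. With those members at their bounds the counts were 30 and 17, with 16 in both groups. Among the 35 members above background on all arrays the counts were 23 and 12, with medians of 1.16 and 0.79. Background correction by normexp lowered the counts to 14 and 6 and the medians to 0.62 and 0.46, and scaling by the array median changed the counts to 25 and 29. Across the 46 members the difference between the wild-type arrays and that between the knockout arrays had a Pearson r of 0.58, and across all tested genes 0.08, as a description over genes that share the same 4 arrays.

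**Figure D3:**
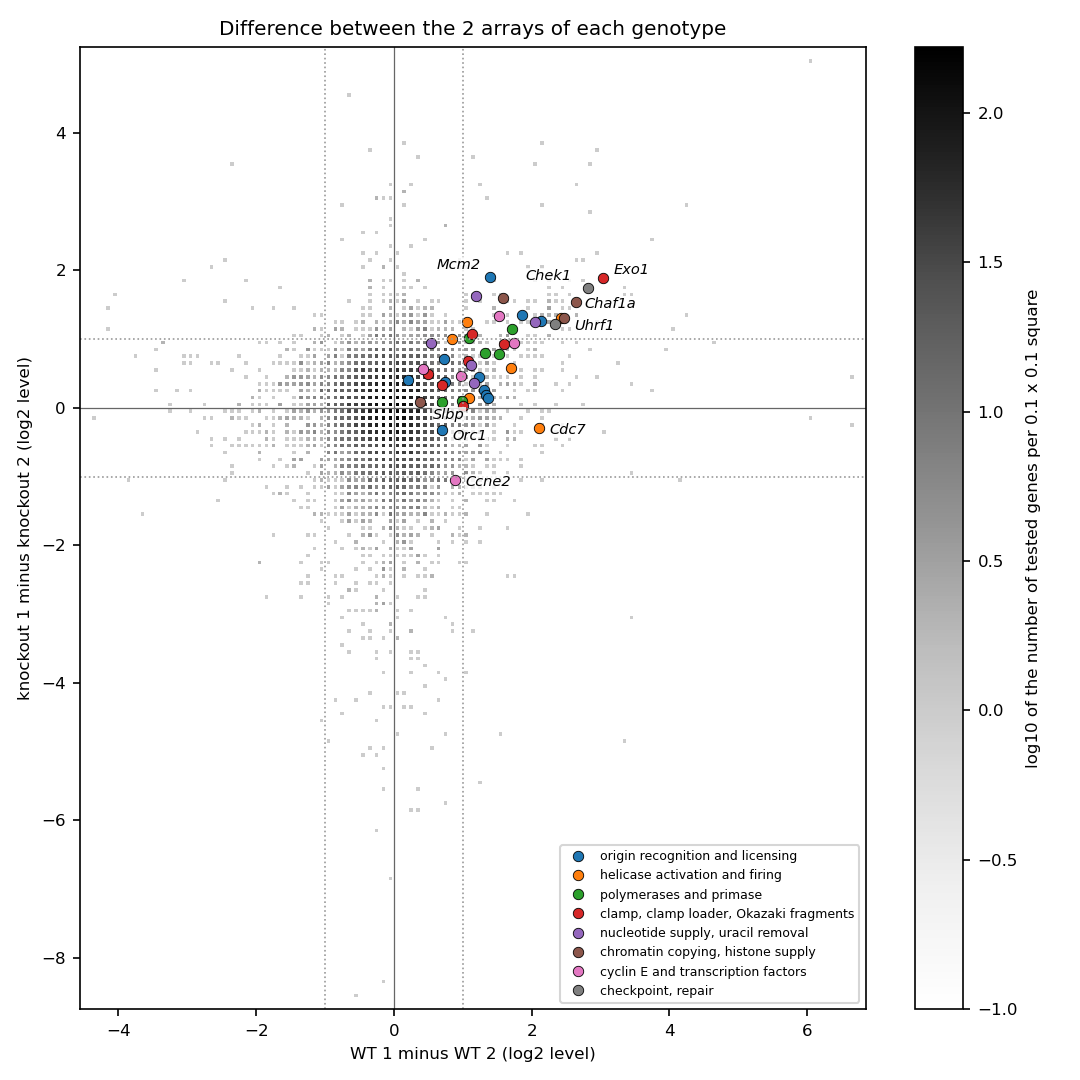
Difference between WT 1 and WT 2 (x axis) against the difference between knockout 1 and knockout 2 (y axis), both on the log2 scale, for 46 replication genes (colored by role) over 13204 tested genes (gray squares, darker for more genes). All 46 lie right of 0 and 43 lie above 0, while the dotted lines mark 2-fold.

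Among the 11 genes of origin recognition and licensing, 10 had a positive and 1 a negative fold change, none passed the test, and medians were 1.30 between the wild-type arrays and 0.40 between the knockout arrays. Mcm6, a subunit of the helicase ring and the brightest probe of this class, read 4.25 (WT 1), 2.11 (WT 2), 3.94 (knockout 1) and 2.67 (knockout 2). Each genotype thus held 1 high and 1 low array, 4.41-fold apart in wild type and 2.40-fold apart in knockout, and the fold change was 0.13 ± 0.80 (adjusted p 0.988 in limma). Mcm2, another ring subunit, read -0.91 (WT 1), -2.31 (WT 2), -1.55 (knockout 1) and -3.44 (knockout 2), the last below background. The reading of knockout 1 was 3.73-fold that of knockout 2. The groups overlapped, and the fold change was -0.89 ± 0.76 (adjusted p 0.935 in limma). Mcm2 was thus the member with the lowest fold change, while the other 5 ring subunits had values between 0.003 and 0.68. Mcm5 showed differences of 1.86 and 1.35 and Mcm7 of 0.73 and 0.71, both with E2F letters in the promoters printed above. Cdc6, which loads the ring, read -2.57, -3.87, -2.60 and -2.86 in the same array order, and WT 2 was below background. Its fold change was 0.50 ± 0.47 (adjusted p 0.935), whereas a second probe for Cdc6 gave -0.20 ± 0.24. Cdt1 and its inhibitor geminin (Gmnn) differed by 1.33 and 1.36 between the wild-type arrays and by only 0.18 and 0.14 between the knockout arrays. Orc1, the largest subunit of the origin recognition complex, was one of the 3 genes with knockout 2 above knockout 1, by 0.32.

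For helicase activation and origin firing, 4 of 6 genes had a positive fold change and 2 a negative one, none past the test, with medians of 1.40 and 0.79 between arrays. Mcm10, a fork scaffold that helps activate the helicase, read 0.26 (WT 1), -2.16 (WT 2), 0.02 (knockout 1) and -1.29 (knockout 2). The difference was 5.36-fold within wild type and 2.47-fold within knockout, and the fold change was 0.32 ± 0.88 (adjusted p 0.972 in limma). Cdc7, the kinase that triggers firing, read -1.27, -3.38, -2.04 and -1.74. The reading of WT 1 was 4.30-fold that of WT 2, which was below background. The knockout arrays were within 0.29 of each other in the opposite order. The fold change of Cdc7 was 0.44 ± 0.70 (adjusted p 0.949), and a second tested probe gave -0.26 ± 0.40. Dbf4, the activating subunit of Cdc7, read -2.34, -4.04, -2.85 and -3.44, with WT 2 below background and exceeded by WT 1 at least 2.71-fold. Unlike its partner it was lower on knockout 2 than on knockout 1. Its fold change was 0.05 ± 0.60 (adjusted p 0.995). Cdc45 and the GINS subunits Gins1 and Gins2, which complete the active helicase, had fold changes of -0.06 ± 0.41, -0.04 ± 0.47 and 0.47 ± 0.56. WT 2 was below background for Cdc45, where WT 1 exceeded it at least 1.69-fold. It was also below background for Gins2, where the wild-type readings were 2.09-fold apart. Gins1, above background on every array, differed by 0.84 between the wild-type arrays.

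Of 6 polymerase and primase genes 4 had a positive and 2 a negative fold change, and the medians between arrays were 1.21 and 0.79. Pole, the catalytic subunit of polymerase epsilon that copies the leading strand, read -0.47 (WT 1), -2.19 (WT 2), -0.64 (knockout 1) and -1.79 (knockout 2). Prim1, the catalytic subunit of primase, read 0.81, -0.71, 0.61 and -0.18. Both genes had 1 high and 1 low array in each genotype, with fold changes of 0.11 ± 0.68 and 0.16 ± 0.58 (adjusted p 0.987 and 0.978 in limma). Pola1 and Prim2, further subunits of the polymerase alpha-primase complex, differed by 1.09 and 1.33 between the wild-type arrays. Between the knockout arrays they differed by 1.02 and 0.79.

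The 7 genes of the sliding clamp, the clamp loader and Okazaki fragment processing had 6 positive fold changes and 1 negative, and medians of 1.08 and 0.67 between arrays. Exo1, a nuclease of replication and mismatch repair, had the widest separation of all members between the wild-type arrays, at -0.65 (WT 1), -3.68 (WT 2), -0.97 (knockout 1) and -2.86 (knockout 2). The reading of WT 1 was 8.20-fold that of WT 2, which was below background. The fold change between genotypes was 0.25 ± 1.13 (adjusted p 0.983 in limma). Lig1, the ligase that seals Okazaki fragments, read 2.32, 0.73, 2.02 and 1.09, and its fold change was 0.03 ± 0.62 (adjusted p 0.998). Pcna, the clamp itself, varied less, at 3.70, 3.20, 4.07 and 3.57. Its differences were 0.49 and 0.50 (1.41-fold in each genotype), and the fold change was 0.37 ± 0.32 (adjusted p 0.935). The clamp loader subunits Rfc3, Rfc4 and Rfc5 differed by 0.69, 1.01 and 1.08 between the wild-type arrays and by 0.34, 0.02 and 0.67 between the knockout arrays, and Fen1, the flap nuclease, by 1.14 and 1.07.

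Nucleotide supply and uracil removal held 5 measured genes, with 3 positive and 2 negative fold changes and medians of 1.16 and 0.94 between arrays. Tk1, thymidine kinase of the salvage route, read 1.08 (WT 1), -0.97 (WT 2), 1.57 (knockout 1) and 0.32 (knockout 2). It had the highest fold change of the members, 0.89 ± 0.78 (1.85-fold), with an adjusted p of 0.935 in limma, and knockout 2 lay between the wild-type arrays. Tyms, which makes thymidylate anew, read 1.64, 0.44, 1.39 and -0.24, so that knockout 2 was lowest. Its fold change was -0.47 ± 0.67 (adjusted p 0.945), and a second probe gave 0.11 ± 0.75. Dut, which keeps uracil out of DNA, read 2.55, 1.39, 2.28 and 1.92 with a fold change of 0.13 ± 0.44 (adjusted p 0.977), and its second probe gave -0.67 ± 0.65. Rrm1, the large subunit of ribonucleotide reductase, and Ung, the uracil glycosylase, differed by 1.11 and 0.54 between the wild-type arrays and by 0.62 and 0.94 between the knockout arrays.

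The 4 genes of chromatin copying and histone supply had medians of 2.03 and 1.43 between arrays, with 3 fold changes positive and 1 negative. Chaf1a, the large subunit of the chromatin assembly factor CAF-1, read -0.56 (WT 1), -3.21 (WT 2), -1.01 (knockout 1) and -2.55 (knockout 2). The reading of WT 1 was 6.26-fold that of WT 2, which was below background. The fold change was 0.11 ± 0.97 (adjusted p 0.993 in limma). Chaf1b, its partner, differed by 1.59 within wild type and 1.60 within knockout. Uhrf1, which recruits the maintenance methyltransferase to copied DNA, read 2.16, -0.31, 1.47 and 0.16, differences of 5.54-fold and 2.48-fold, and its fold change was -0.12 ± 0.89 (adjusted p 0.990). Slbp, which binds the stem-loop of histone messages, behaved otherwise, at 2.07, 1.68, 2.07 and 1.99. Its differences were 0.39 and 0.08, its fold change was 0.15 ± 0.26 (adjusted p 0.956), and no other member had a smaller standard error.

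The class of cyclin E and transcription factors had medians of 0.98 and 0.57 between arrays, with 3 positive and 2 negative fold changes in 5 genes. Ccne2 was 1 of the 3 members with knockout 2 above knockout 1, beside Orc1 and Cdc7, at -1.60 (WT 1), -2.49 (WT 2), -2.57 (knockout 1) and -1.52 (knockout 2). Knockout 2 was its highest array, WT 2 was below background, and the fold change was 0.01 ± 0.49 (adjusted p 0.999 in limma). Ccne1, the other E-type cyclin that drives entry into S phase, read 0.94, -0.03, 0.96 and 0.50, and its fold change was 0.27 ± 0.41 (adjusted p 0.945), with -0.42 ± 0.33 from a second probe. E2f8, a repressor of the E2F family, read -1.22, -2.74, -1.87 and -3.20 with a fold change of -0.55 ± 0.67 (adjusted p 0.938). Mybl2, an activator of late cell cycle genes, read -1.54, -3.28, -1.59 and -2.53 with a fold change of 0.35 ± 0.65 (adjusted p 0.958). E2f1, the activator E2F, differed by 0.43 and 0.57 between arrays.

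The checkpoint and repair genes were Chek1, the checkpoint kinase, and Brca1, which acts in recombination repair and fork protection. Brca1 read -0.50 (WT 1), -2.84 (WT 2), -0.74 (knockout 1) and -1.96 (knockout 2), that is 5.06-fold and 2.32-fold between arrays, with a fold change of 0.32 ± 0.85 (adjusted p 0.971 in limma). Chek1 read -2.85, -5.66, -2.90 and -4.64 and was above background only on WT 1 and knockout 1, so it was not tested. These arrays exceeded the other array of their genotype at least 1.90-fold and 2.63-fold.

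Other genes of the cell cycle were read from lists chosen by function. In the list of other replication genes, 46 of 49 measured genes were tested and none passed the adjusted or the unadjusted threshold, with 27 fold changes positive and 22 negative and a median of 0.04. Their medians between arrays were 0.53 and 0.25, and 15 and 4 of 49 differed at least 2-fold, or 12 and 3 of the 42 above background on all arrays. Recql4, a helicase of origin firing, had the largest fold change among the tested genes of that list, 0.74 ± 0.57 (adjusted p 0.935 in limma), with WT 2 below background. The list of mitosis genes had medians of 2.26 between the wild-type arrays and 1.39 between the knockout arrays. Of 29 measured, 25 and 18 differed at least 2-fold, all 18 in both groups. WT 2 was below background for 11 of the 29 and knockout 2 for 5, and among the 18 genes above background on all arrays 16 and 13 differed at least 2-fold, with medians of 2.21 and 1.40. Of the 24 tested, none passed either threshold, and over the 29 measured the median fold change was -0.14, with 8 positive and 21 negative. Mki67, the Ki-67 antigen, read 2.80 (WT 1), 0.49 (WT 2), 2.24 (knockout 1) and 0.61 (knockout 2), and its fold change was -0.22 ± 0.90 (adjusted p 0.981). Kif2c, a motor that takes apart microtubule ends, had the largest fold change among the tested mitosis genes, -0.87 ± 0.35 (adjusted p 0.935 in limma). Its readings were -2.71, -3.06, -4.15 and -3.37. Both knockout readings lay below both wild-type readings, as in 2 of the 29 mitosis genes and 17.7% of all tested genes.

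The array difference was not a property of every cell cycle list. The list of 14 pocket protein and E2F repressor complex genes holds several that keep E2F targets silent in resting cells. Its medians between arrays were 0.07 and 0.10, and 0 differed at least 2-fold in either group in the direction of array 1. Array 1 was above array 2 in both groups for 5 of the 14 (35.7%, against 23.8% of all tested genes). Among these were Rbl1, by 0.77 and 0.63, and E2f3, by 0.65 and 0.83. Rbl1, a pocket protein, read -0.05 (WT 1), -0.82 (WT 2), 0.84 (knockout 1) and 0.21 (knockout 2). Its knockout readings lay above both wild-type readings, as in 4 of the 14 genes and 17.8% of all tested genes. The fold change of Rbl1 was 0.96 ± 0.39 with an adjusted p of 0.935 in limma. For 11 measured genes of the list of D cyclins and CDK inhibitors, which also holds the kinases Cdk4 and Cdk6, the medians were -0.18 and 0.28. Cdkn2d, an inhibitor of Cdk4 and Cdk6, had the largest fold change among those tested, -2.00 ± 1.04 (adjusted p 0.935), which rested on knockout 2, below background at -5.03, beside -1.42, -1.35 and -1.75. Neither list held a gene past the adjusted or the unadjusted threshold.

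**Figure D4:**
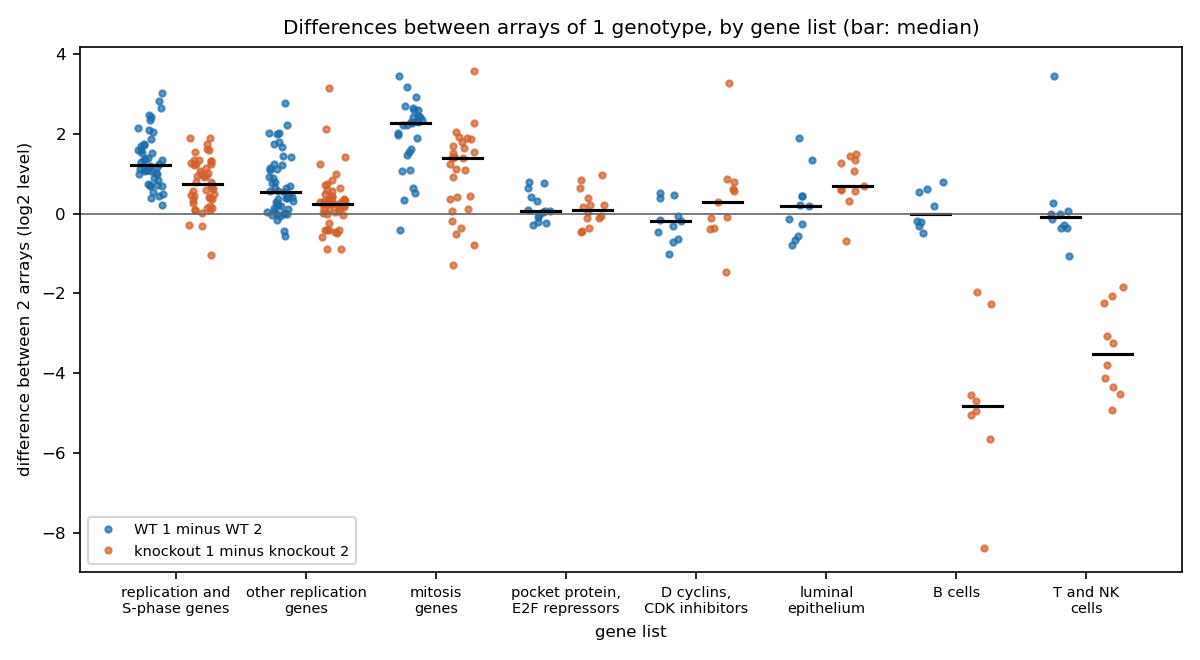
Differences between the 2 arrays of each genotype (y axis, log2 level of array 1 minus array 2) for genes of 5 cell cycle lists and 3 marker lists (x axis), with a point per gene and a bar at the median. Replication members lie at medians of 1.22 (wild type) and 0.75 (knockout) and mitosis genes at 2.26 and 1.39. The medians of pocket protein and E2F repressor complex genes lie near 0, and lymphocyte markers lie far below 0 within knockout.

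Markers of the cell types in a gland were read on the same arrays, since in RNA from whole tissue fewer cells of a type and less RNA per cell cannot be told apart. Mean relative levels of the 11 luminal markers were 0.37 (WT 1), 0.17 (WT 2), 0.13 (knockout 1) and -0.67 (knockout 2). Those of the 8 basal and myoepithelial markers were 0.29, -0.08, 0.19 and -0.40. Both epithelial lists were thus lowest on knockout 2, and the replication members on WT 2. Median differences between the knockout arrays were 0.68 for luminal and 0.77 for basal and myoepithelial markers, beside 0.75 for the members. Between the wild-type arrays they were 0.18 and 0.35, beside 1.22 for the members. Lymphocyte markers moved otherwise, with 8 B cell markers at -0.64, -0.76, -1.65 and 3.05 and 10 T and NK cell markers at -0.74, -0.89, -0.90 and 2.52. Pax5, Blk and Cd4 were not above background on any array. The array with the high lymphocyte markers, knockout 2, was the lower of the knockout arrays for 43 of 46 replication members. The 6 germinal centre markers read -0.20, 0.07, -0.49 and 0.61, with Mef2b below background on every array. The 5 epidermis and hair follicle markers read 0.93, -0.68, -0.32 and 0.08, but their median difference between the wild-type arrays was 0.08, since the mean rested on Krt71 and Krt27, for which WT 2 was below background. Krt1 was below background throughout. Adipocyte markers, 6 in all, read -0.37, 0.29, 0.08 and 0.0009, and 0 of 6 were higher on WT 1 than on WT 2. Macrophage markers, 5 measured, read 0.07, 0.61, -0.39 and -0.29, again with 0 of 5 higher on WT 1. Fibroblast markers read 0.30, 0.32, -0.31 and -0.31. Both knockout readings lay below both wild-type readings for 6 of 6 fibroblast and 4 of 5 macrophage markers, against 17.7% of all tested genes. None passed the adjusted threshold. At an unadjusted p under 0.05 in limma were 2 fibroblast, 2 macrophage, 1 luminal and 1 skeletal muscle markers, against 3.54% of all tested genes. Endothelial markers read 0.25, 0.17, -0.17 and -0.25, and skeletal muscle markers 0.43, 0.23, -0.29 and -0.38. In each of these lists 3 of 5 had both knockout readings below both wild-type readings. The part of cell composition in the array differences was not tested.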

How the data were processed

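Total RNA, labelled with Cy3, was read on 4 one-colour Agilent arrays. The intensity of each spot was deposited as the scanner's output. Agilent Feature Extraction made the processed intensities (11.5.1.1 according to the file headers, whereas the submitters' processing notes name 10.7.3.1), with background subtracted and nothing done between arrays. A second deposited table holds log2 values by the authors. They lay close to quantile-normalized log2 signals after centring each probe on its median over the arrays (median absolute difference 0.000214 to 0.000310 per array, column medians -0.0178, 0.0184, 0.00604 and -0.00977 for WT 1, WT 2, knockout 1 and knockout 2), and the table served as an alternative.

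Levels here are log2 processed signal minus the array's 75th percentile, without control spots and the 35 to 73 spots per array with outlier flags, averaged over spots of a probe. Accessions were matched to RefSeq names (27816 of 41174 probes, 18952 genes). The 24182 probes that passed background on both arrays of one genotype or more were tested with limma 3.58.1 in R 4.3.3, with no covariate and Benjamini-Hochberg adjustment over all of them. The fit was also run on simulated data, but only with changes far larger than the fold changes of the members. That run therefore does not show how the fit performs at effects of their size. A gene counts as tested (13204) when its brightest probe passed. A bound ("at least") sets the bright array against the higher of the dim probe's reading and the lowest signal well above background on that array. These bounds are approximate, because the limit differs between spots. On WT 2, Ccne2 was below background at a signal of 25.6 and Mybl2 above it at 14.8. For Mcm2, Cdc7, Gins2, Exo1 and Chaf1a the dim reading was the higher, so the plain ratio of readings is given. The number of arrays, 2 per group, limits the precision.

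The members and lists were chosen with earlier results of these data known. Members named with their fold change were those past the adjusted threshold, those whose groups do not overlap (up to 5 per direction), the brightest and the 2 with the widest average array difference in each role class, any with a negative average difference, any with a second tested probe over 0.5 away in fold change, and any not above background on both arrays of each group. Stmn1, Mki67 and the tested gene with the largest fold change in each other list were added. Further members are named by array differences alone and were chosen after their values were seen. Alternatives covered background correction (normexp, offset 50, on median spot signals), normalization, filters, probe choice, the replicate block and leaving out each array.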

Additional observations from a re-analysis of the deposited data

How the results depend on the processing

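Under every alternative 0 replication members passed the adjusted threshold. Over all tested genes the count stayed at 0 except for 5 with median scaling, where the median over all genes was 0.17. With the replicate block 0 genes passed, the lowest adjusted p of a member was 0.954 and 2 members (Mcm2 and Tk1) had an unadjusted p under 0.05, against 3.26% of all tested genes. That count was 5 without WT 1 (Cdc6, Mcm3, Cdc7, Pold1 and Tk1, against 2.54%), 2 without knockout 1 (Mcm2 and Ung, against 7.33%) and 0 under the other settings. Deviations of WT 1 and knockout 1 from their group means correlated at 0.0648 over 24182 probes. A value over all probes cannot show whether a smaller set of genes shares a factor. The labels state no link beyond the number, and such a link was not tested. Members with a negative fold change were 11 as reported, 21 with normexp and 4 to 44 with 1 array left out (4 without WT 1, 44 without WT 2, 31 without knockout 1, 6 without knockout 2). Members without overlap between groups were 2 as reported (35.5% of all tested genes), 8 with normexp (34.7%), 1 each with quantile normalization (36.9%), median scaling (27.7%), the authors' table (36.9%), the filter on all arrays (36.5%) and the mean of probes (34.9%), and 12 to 36 with 1 array left out (63.9% to 71.6%). With 1 array in a group fewer readings have to separate, and the other causes were not tested. The median fold change lay between 0.02 (normexp) and 0.31 (median scaling) with every array kept and between -0.53 and 0.79 with 1 left out. The median difference lay between 0.62 and 1.28 for wild type and between 0.46 and 1.28 for knockout. With every array kept, 270 of 285 values of named genes kept their sign. The sign turned under normexp for Ccne2 (-0.38), Cdc6 (-0.021), Cdc7 (-0.012), Chaf1a (-0.22), Dbf4 (-0.25) and Exo1 (-0.092), under quantile normalization and in the authors' table for Cdc45 (0.12 in each), under median scaling for Cdc45 (0.11), Gins1 (0.13) and Uhrf1 (0.057), under the percentile of detected probes for Ccne2 (-0.0090), and with the mean of probes for Ccne1 (-0.072), Dut (-0.27) and Uhrf1 (0.021). With 1 array left out, where the lone array is assumed to vary like the others, the sign turned in 27 of 33 named genes, with ranges of Brca1 -0.85 to 1.49, Ccne1 -0.22 to 0.76, Ccne2 -0.52 to 0.53, Cdc45 -0.61 to 0.48, Cdc6 -0.15 to 1.15, Cdc7 -0.61 to 1.49, Chaf1a -1.22 to 1.43, Dbf4 -0.80 to 0.90, Dut -0.45 to 0.71, E2f8 -1.31 to 0.21, Exo1 -1.27 to 1.76, Gins1 -0.54 to 0.46, Gins2 -0.16 to 1.096, Lig1 -0.77 to 0.83, Mcm10 -0.90 to 1.53, Mcm2 -1.84 to 0.061, Mcm6 -0.94 to 1.20, Mki67 -1.37 to 0.93, Mybl2 -0.52 to 1.22, Pole -0.75 to 0.97, Prim1 -0.60 to 0.92, Recql4 -0.095 to 1.57, Slbp -0.042 to 0.34, Stmn1 -1.64 to 0.36, Tk1 -0.13 to 1.91, Tyms -1.28 to 0.35 and Uhrf1 -1.35 to 1.12. Signal over background limits dim members, above all on WT 2.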
